A study of Mus musculus with 8 samples.

Results

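The drift of untreated 3T3-L1 adipocytes over 8 hours of sampling was described from the 4 control arrays of a series of 8. All control arrays were taken, with every probe set: 1 array at 4 h, 2 at 8 h and 1 at 12 h. 3T3-L1 is an established line of mouse embryo fibroblasts that is turned into fat cells in culture. The other 4 arrays hold cells exposed to tunicamycin, a blocker of N-linked glycosylation, for 4 h (1 array), 8 h (1 array) and 12 h (2 arrays). No source used here states its dose, the control vehicle, the day of differentiation or when the medium was last changed. The replicates are labelled biological. The arrays are Affymetrix mouse arrays with 45101 probe sets, read as 1 intensity per probe set. The intensities below are quantile-normalized, and differences are on the log2(intensity + 2.956) scale, which understates the change of dim genes.

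Cultured fat cells respond to their medium. Immediate-early genes such as Fos and Myc are transcribed within minutes of serum, growth factors or handling, and their RNAs decay fast. Many genes of glucose breakdown and of the response to low oxygen can be induced by the transcription factor HIF1. Its alpha subunit is marked for destruction by oxygen-dependent prolyl hydroxylases. The clock genes oscillate daily through a loop in which CLOCK and BMAL1 drive their own repressors. Fat cell identity rests on Pparg and Cebpa, and preadipocytes express Dlk1, which is lost during differentiation.

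The cells carried the markers of their label. Fabp4, a fatty acid carrier of adipocytes, held the top of the intensity scale, 10780, on all 4 control arrays, so that quantile normalization fixes its value and its difference carries no information. Adipoq, which encodes adiponectin, was at 8450 to 9746 and Pparg at 1283 to 1916. Lep was below the filter, and no probe set was named Plin1. Fibroblast genes were bright as well, with Col1a2 at 6917 to 7680 and Dlk1 at 2145 to 3618. Of the markers of other cell types, 3 of 8 for macrophages, 0 of 7 for endothelium and 2 of 8 for skeletal muscle passed the filter. Their summed intensities over the 4 arrays ran from 247.9 to 506.9, 15.78 to 34.23 and 104.7 to 153.2.

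The 12 h control stood apart in the array's own controls. Among the spiked hybridisation controls, BioC over BioB was 2.67 at 4 h, 2.82 and 2.67 at 8 h and 0.988 at 12 h. Cre over BioB was 24.5, then 26.8 on both 8 h arrays, then 45.6. Both 12 h tunicamycin arrays shared the low BioC over BioB ratio, with 0.905 and 0.995. The signal of 18S rRNA relative to the array mean was 3.71 at 4 h, 3.58 and 2.29 at 8 h and 1.7 at 12 h, while the 3' to 5' ratio of beta-actin was 1.82, 1.54 and 1.57, and 1.51. In every comparison with the 12 h control, time and these differences between arrays cannot be told apart.

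The first question was how far untreated cells move at all. Over the 10916 tested genes, the 12 h control had 255 genes at least 2-fold from the 4 h control (r = 0.978). The 8 h replicates had 218 (r = 0.984) and 147 (r = 0.987) such genes against 4 h. The same count between the 8 h replicates themselves was 204 (r = 0.983). By this count replicate 1 at 8 h was slightly farther from the 4 h array than from replicate 2, and replicate 2 was nearer. Against the 8 h replicates, the 12 h array had 335 and 265 genes at least 2-fold apart, more than any pair among the other 3 arrays. The absolute 12 h minus 4 h difference was larger than the gap between the 8 h replicates for 6286 genes (57.6%), and that of 8 h minus 4 h for 4685 (42.9%). The first sets 1 array against 1, as the replicate gap does. The second uses the mean of the 8 h arrays, which narrows it, so these shares are not compared with each other.

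**Figure D1:**
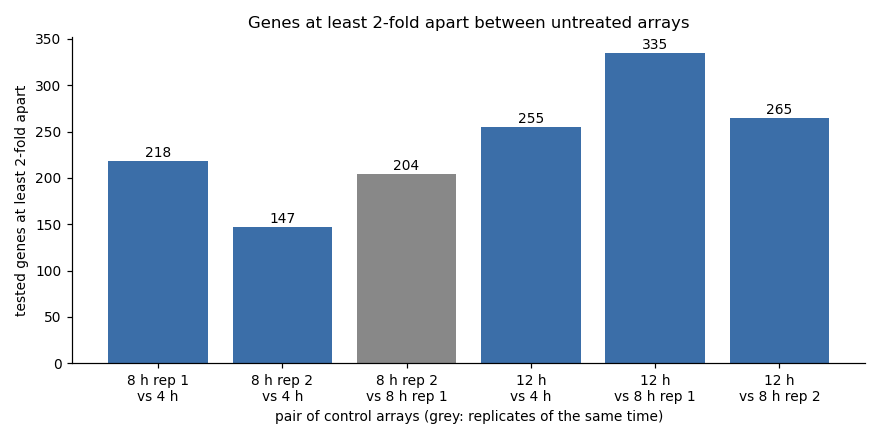
Number of tested genes at least 2-fold apart (vertical axis) for each pair of the 4 control arrays (horizontal axis), with the replicate pair in grey. The 3 pairs with the 12 h array have 255, 335 and 265 genes, and the replicate pair has 204.

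No gene passed the test in any comparison of the controls. With limma over all 8 arrays and Benjamini-Hochberg adjustment over 10916 genes, 0 genes were called for 12 h minus 4 h, 0 for 8 h minus 4 h and 0 for 12 h minus 8 h (0% each), with smallest adjusted p of 0.177, 0.779 and 0.15. At an unadjusted p under 0.05 there were 935 genes (8.57%), 288 (2.64%) and 1142 (10.5%). The median SE of a difference was 0.229, 0.199 and 0.199. The lone arrays at 4 h and 12 h are assumed to vary like the replicated groups. All control values below are therefore differences between arrays, none of them called, and "higher" or "lower" at an unadjusted p is a description.

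For 12 h minus 4 h, 95 genes were at least 2-fold higher (0.87% of those tested) and 160 at least 2-fold lower (1.47%). The genes described next have the 8 highest and 8 lowest differences among those at 50 units or more on all 4 control arrays. Gas7, an actin-associated protein, had intensities of 161 at 4 h, 229 and 142 at 8 h and 652 at 12 h, a difference of 1.99 (SE 0.418, adjusted p = 0.284). Pdpn, the membrane glycoprotein podoplanin, had 145, then 161 and 172, then 376 (1.36, SE 0.256, adjusted p = 0.219). In both genes the 12 h array lay above the others, which lay close together for Pdpn but not for Gas7, whose 8 h replicates were -0.68 apart on the log2 scale.

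Chst2, a carbohydrate sulfotransferase, differed by 1.37 and Sertad4, a SERTA domain protein, by 1.32. Aebp1, which encodes a secreted protein of collagenous matrix, had 183 at 4 h, 227 and 203 at 8 h and 438 at 12 h (1.25, SE 0.195, adjusted p = 0.177). Osr1, a zinc finger transcription factor of connective tissue, had 89.4, then 133 and 153, then 217 (1.25, SE 0.227). Osr1, B9d1 (1.22), a component of the ciliary transition zone, and Lrrc17 (1.17), a secreted leucine-rich repeat protein, had both 8 h arrays between the 4 h and the 12 h value. The same held for Aebp1, Chst2 and Pdpn.

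On the lower side, immediate-early and hypoxia genes were among the 8 named. Ier2, an immediate-early regulator, had 335 at 4 h, 302 and 267 at 8 h and 118 at 12 h, a difference of -1.48 (SE 0.199, adjusted p = 0.177). Myc, the growth-promoting transcription factor, had 287, then 188 and 222, then 107 (-1.40, SE 0.222, adjusted p = 0.177). Egln3, a prolyl hydroxylase that marks HIF subunits, had 250, then 218 and 157, then 92.9 (-1.40, SE 0.345). In all 3 genes the 8 h arrays lay between the 4 h and the 12 h array.

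Fosl1, a partner of JUN in the AP-1 factor, differed by -1.36 and Plcb3, a phospholipase C, by -1.28. 2610528A11Rik had 201 at 4 h, 153 and 119 at 8 h and 55.9 at 12 h (-1.79, SE 0.262, adjusted p = 0.177). The value of Acaa1a, a peroxisomal thiolase, was -1.49, but its other bright probe set went the opposite way. That of Cit, which encodes citron kinase, was -1.73 and turned to 0.42 with the mean of its probe sets.

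**Figure D2:**
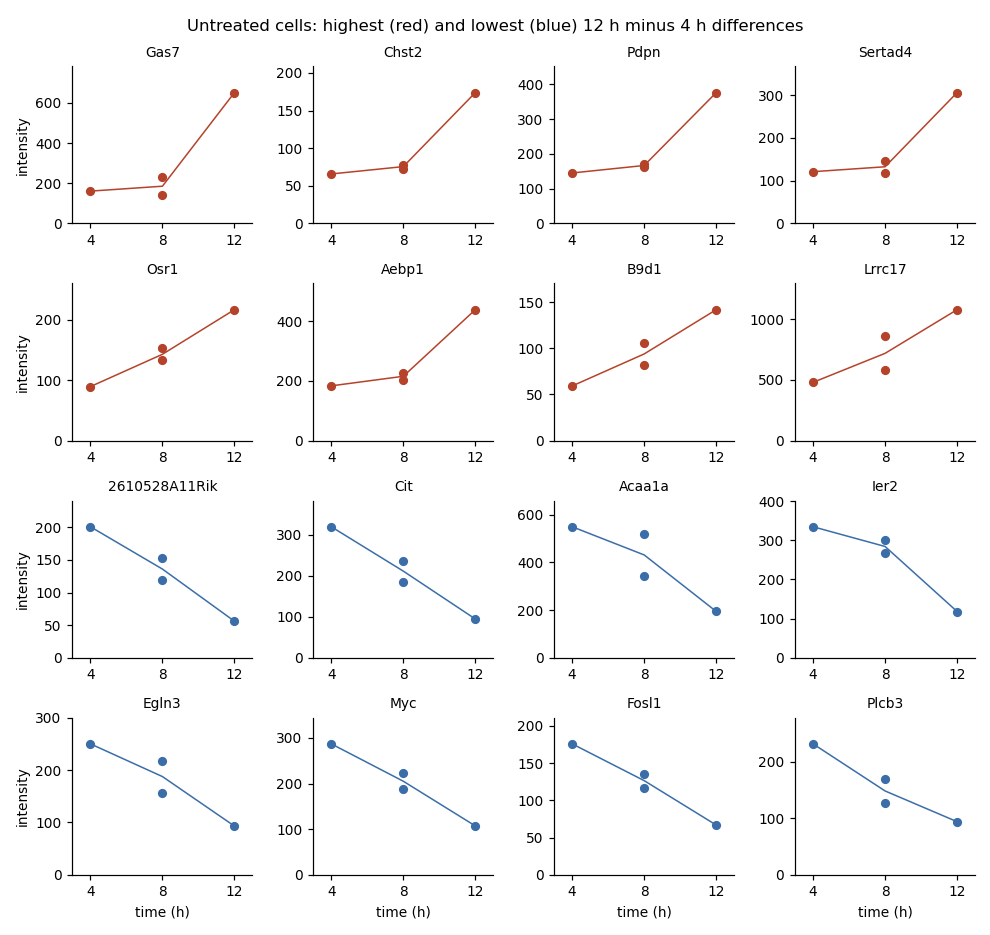
Normalized intensity (vertical axis, from 0) against time in hours (horizontal axis) for the 8 genes with the highest (red) and the 8 with the lowest (blue) 12 h minus 4 h difference among genes at 50 units or more on all 4 control arrays. Points are arrays and lines join the means at each time; for Gas7 the 12 h array is at 652 and the others are at 142 to 229.

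Immediate-early factors were mostly at their lowest at 12 h. Of 27 genes in the list 23 were tested, 0 were higher and 9 lower at an unadjusted p under 0.05, where the background over all tested genes was 3.86% higher and 4.71% lower, and the median difference was -0.27 against -0.017 for all genes. The 12 h array lay below the other 3 for 13 of the 23, against 31.3% of all tested genes, and above them for 5, against 31.0%. Members not named by the rule are shown here and below as examples chosen after their values were seen.

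The members at an unadjusted p under 0.05 included Atf3, a stress-induced factor, with 76.3 at 4 h, 65.1 and 52.3 at 8 h and 34.2 at 12 h (-1.09, SE 0.233). Junb, another AP-1 subunit, had 83.8, then 72.4 and 72.8, then 46.4 (-0.81, SE 0.244). Zfp36, which encodes a protein that destabilises AU-rich RNAs, had 216, then 174 and 172, then 122 (-0.81, SE 0.197). Each of these had its 12 h array below the others. Egr1, a zinc finger factor induced by serum, had 783, then 1093 and 893, then 453, so that the 8 h arrays were above both other times. Nr4a1, an orphan nuclear receptor on the same list, had 236, then 357 and 310, then 227. The list was not uniform, since Jun (0.18) and Jund (0.00) differed by less than their SE of 0.233 and 0.156. With the deposited scaling kept, 3 members were lower at this p, and without the filter 5.

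Glycolytic genes were mostly brightest at 4 h and dimmest at 12 h. Of 16 tested members, 9 were lower and 0 higher at an unadjusted p under 0.05 (background 4.71% and 3.86%), with a median of -0.44, and the 12 h array lay below the other 3 for 11. The 4 h array lay above the other 3 for 10 of the 16, against 24.7% of all tested genes. Hk2, the hexokinase regulated by insulin, had 725 at 4 h, 708 and 693 at 8 h and 395 at 12 h (-0.87, SE 0.175, adjusted p = 0.256). Pdk1, a kinase that inhibits pyruvate dehydrogenase, had 527, then 369 and 439, then 270 (-0.95, SE 0.21, adjusted p = 0.312). For Hk2 the 4 h and 8 h arrays lay close together, whereas for Pdk1 the 8 h arrays lay between.

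The bright enzymes of the lower pathway differed less. Ldha, lactate dehydrogenase A, had 5757 at 4 h, 5602 and 5211 at 8 h and 4063 at 12 h (-0.50, SE 0.129). Aldoa (aldolase), Tpi1 (triose phosphate isomerase) and Pgk1 (phosphoglycerate kinase) differed by -0.52, -0.51 and -0.51. Slc2a1 and Slc2a4, the glucose transporters GLUT1 and GLUT4, had 458 to 520 and 333 to 382 on the later arrays, against 603 and 471 at 4 h. None of the members was lower at this p with the deposited scaling, and 4 with median centring, where the median of the list was -0.34 relative to all genes and -0.30.

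Hypoxia-inducible genes formed a related list, with 5 of 14 tested members lower and 0 higher at an unadjusted p under 0.05 (background 4.71% and 3.86%) and a median of -0.34. For 7 members both 8 h arrays lay between a higher 4 h and a lower 12 h value, against 10.7% of all tested genes. Bnip3, a mitophagy receptor induced by HIF1, had 2470 at 4 h, 2133 and 2037 at 8 h and 1154 at 12 h, a difference of -1.10 (SE 0.134, unadjusted p = 2.91e-05, adjusted p = 0.177). Its gap between the 8 h replicates was -0.07. With the deposited scaling kept, 1 member of the list was lower at this p, and 3 with median centring or without the intensity trend. Vegfa, the endothelial growth factor, had 583, then 418 and 486, then 417 (-0.48, SE 0.178).

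Adm, the vasodilator adrenomedullin, went the other way with 131 at 12 h against 109 at 4 h (0.26, SE 0.217), and Hif1a itself had 1053 at 12 h against 1166 at 4 h (-0.15, SE 0.198). Each of these has another probe set with the opposite sign. Ero1a, the ER oxidase, which is not on this list, had 1496 at 4 h, 1082 and 842 at 8 h and 682 at 12 h (-1.13, SE 0.183, adjusted p = 0.177). Both 8 h arrays lay between the other times, as for Bnip3.

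The promoter windows of Bnip3 and Egln3 are shown because these genes had the largest differences of the hypoxia list. They run from 250 bases before to 50 after the annotated start and come from RefSeq on GRCm38.p6. Capitals mark the core of the hypoxia response element, ACGTG, searched on both strands, and a run of CACGTG is its overlap with an occurrence on the other strand. Bnip3 lies on the minus strand at chr7:138909457-138909756 and Egln3 on the minus strand at chr12:54203825-54204124.
Bnip3: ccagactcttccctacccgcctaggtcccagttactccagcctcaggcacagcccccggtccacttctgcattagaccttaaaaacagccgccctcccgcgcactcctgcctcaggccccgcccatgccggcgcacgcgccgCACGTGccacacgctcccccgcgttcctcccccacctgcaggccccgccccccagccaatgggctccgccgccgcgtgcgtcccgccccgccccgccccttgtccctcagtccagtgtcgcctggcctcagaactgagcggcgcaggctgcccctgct
Egln3: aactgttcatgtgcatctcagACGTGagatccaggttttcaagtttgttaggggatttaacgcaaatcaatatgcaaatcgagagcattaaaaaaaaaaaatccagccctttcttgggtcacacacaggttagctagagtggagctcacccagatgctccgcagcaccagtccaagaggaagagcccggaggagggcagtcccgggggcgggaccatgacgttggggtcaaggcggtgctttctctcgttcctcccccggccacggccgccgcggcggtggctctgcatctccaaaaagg
The core was found in 10 of 15 windows of the 12 matched members, and in 6447 of all 32851 windows (19.6%). The motif was chosen after the values were seen. A match describes these letters and is no evidence of binding.

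Most adipocyte genes were at their lowest on the 12 h array. Of 19 tested adipocyte markers, the 12 h array lay below the other 3 for 16, against 31.3% of all tested genes, and 7 were lower and 0 higher at an unadjusted p under 0.05 (background 4.71% and 3.86%). The median difference was -0.27. Pparg, the nuclear receptor that drives the fat cell program, had 1916 at 4 h, 1773 and 1773 at 8 h and 1283 at 12 h (-0.58, SE 0.138, adjusted p = 0.333). Cebpa, its partner, had 1019, then 1014 and 1373, then 1000 (-0.03, SE 0.244), a difference within its SE. The largest difference of the list was positive and rests on dim values: Pck1, the glyceroneogenic enzyme PEPCK, had 21.5, then 31.9 and 38, then 50.4 (1.13, SE 0.617, adjusted p = 0.694). It was the only marker at least 2-fold apart between 12 h and 4 h.

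Genes of lipid storage and release were low on the same array. Lipe, hormone-sensitive lipase, had 1411 at 4 h, 1448 and 1447 at 8 h and 858 at 12 h (-0.72, SE 0.146). Mgll, monoglyceride lipase, had 313, then 344 and 378, then 169 (-0.88, SE 0.197, adjusted p = 0.312). Cidec, a lipid droplet protein, had 3489, then 3196 and 3559, then 2194 (-0.67, SE 0.147). In these genes the 8 h arrays were near the 4 h array and the 12 h array was below. Of 16 tested genes of lipolysis and fatty acid oxidation, 6 were lower and 0 higher at an unadjusted p under 0.05, with a median of -0.38, and the 12 h array was the lowest for 13 (4.71%, 3.86% and 31.3% of all tested genes). The lower count was 0 with the deposited scaling and 3 without the trend. Lipe, Mgll and Pnpla2 are on both this list and that of adipocyte markers, so these counts are not separate.

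Among the oxidation enzymes, Acadm and Acadvl, acyl-CoA dehydrogenases, both differed by -0.38, while Cpt1a, which admits fatty acids to the mitochondrion, differed by 0.27 (SE 0.201). Of 18 tested genes of fatty acid synthesis, 4 were lower and 0 higher (background 4.71% and 3.86%). The lower count was 0 with the deposited scaling, 2 with median centring, without the filter or with the mean of probe sets, and 7 without 12 h tunicamycin replicate 2. Scd1, stearoyl-CoA desaturase, had 7965 at 4 h, 8347 and 8056 at 8 h and 5277 at 12 h (-0.59, SE 0.11). Of 9 tested LXR targets and cholesterol exporters 4 were lower and 1 higher: Abca1, the cholesterol exporter, had 1290, then 1378 and 1355, then 766 (-0.75, SE 0.139, adjusted p = 0.214), and Npc1, a lysosomal cholesterol transporter, was the higher one (0.74, SE 0.228). The 4 lower LXR members numbered 0 with the deposited scaling and 1 with the mean of probe sets. Cholesterol synthesis genes had a median of 0.07.

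These lists depend on the scaling. The median of the adipocyte markers was -0.14 with the deposited scaling, relative to all genes, and -0.10 with median centring, and 0 members were lower at the unadjusted p with the deposited scaling and 4 without the trend. Adipoq, at -0.07 (SE 0.126), turned to 0.14 and 0.18 under these scalings. In bulk RNA, fewer adipocytes and less RNA of these genes per cell cannot be told apart.

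Genes of fibroblasts and of the contractile cytoskeleton were high on the 12 h array. Of 19 tested preadipocyte and fibroblast markers 7 were higher and 0 lower at an unadjusted p under 0.05 (background 3.86% and 4.71%), with a median of 0.22, and the 12 h array lay above the other 3 for 13, against 31.0% of all tested genes. The 4 h array was the lowest for 10 (20.1% of all tested genes), and for 9 both 8 h arrays lay between it and a higher 12 h array (9.81%). Dlk1, the preadipocyte surface protein, had 2224 at 4 h, 2145 and 2261 at 8 h and 3618 at 12 h (0.70, SE 0.164, adjusted p = 0.316). S100a4, a calcium-binding protein of fibroblasts, had 3675, then 4489 and 4281, then 5509 (0.58, SE 0.133, adjusted p = 0.312). For Dlk1 the first 3 arrays nearly coincided, and for S100a4 the 8 h arrays lay between.

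Lox, which cross-links collagen, had 1803 at 4 h, 2270 and 2219 at 8 h and 2550 at 12 h (0.50, SE 0.133). The abundant collagens differed less, with Col1a1 at 0.39, Col3a1 at 0.11 and Col1a2 at 0.07. The median of the list was 0.39 with the deposited scaling, relative to all genes, and 0.43 with median centring, but 0 members were higher at the unadjusted p with the deposited scaling, 3 without the trend and 4 with the mean of probe sets.

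Of 11 tested targets of YAP and SRF, regulators that respond to cell tension and actin, 4 were higher and 1 lower at an unadjusted p under 0.05, and the 12 h array was the highest for 9 (median 0.43), against 3.86%, 4.71% and 31.0% of all tested genes. The higher count was 1 with the deposited scaling and 2 without the filter. Tagln, an actin-binding protein of smooth muscle, had 7.71 at 4 h, 18.1 and 8.75 at 8 h and 56.7 at 12 h (2.48, SE 0.662, adjusted p = 0.367), so its difference rests on dim values. Acta2, smooth muscle actin, had 2255, then 2452 and 2250, then 3375 (0.58, SE 0.192), and Myl9, a myosin light chain, had 73.9, then 96.1 and 91.1, then 147 (0.96, SE 0.318). Ccn1, the matricellular target that is also an immediate-early gene, was the lower member, with 233, then 236 and 226, then 118 (-0.97, SE 0.203).

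Of 15 tested TGF-beta and BMP targets, the 12 h array was the highest for 12, against 31.0% of all tested genes (median 0.31). At the unadjusted p only 1 was higher and 0 lower (background 3.86% and 4.71%). The higher count ran from 0 with the deposited scaling to 3 without either 12 h tunicamycin replicate. That gene was Pmepa1, a feedback inhibitor of the pathway (0.84, SE 0.302), 1 of whose other probe sets went the opposite way. Id2, an inhibitor of DNA binding, had 46.3 at 4 h, 45.9 and 43.9 at 8 h and 77.6 at 12 h (0.71, SE 0.342).

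**Figure D3:**
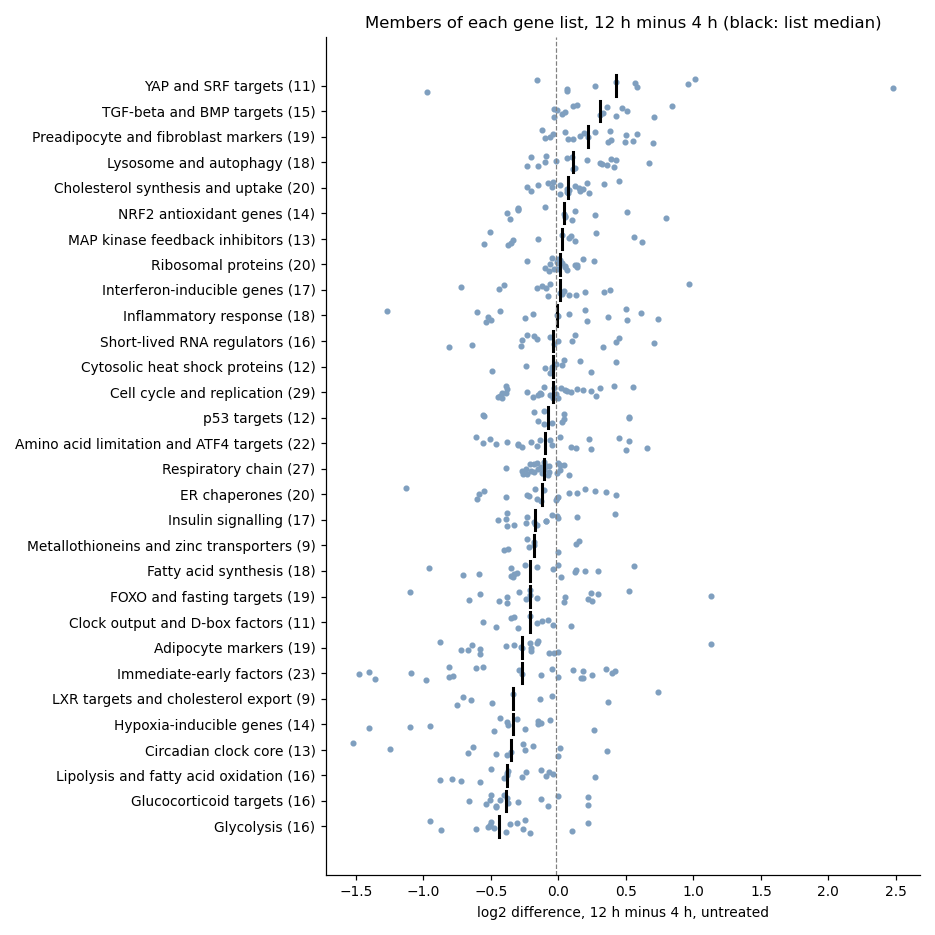
Log2 difference, 12 h minus 4 h, of each tested member (points) of 30 gene lists, with the number of tested members in brackets, the list median in black and the median of all tested genes as a dashed line. The medians run from -0.44 for glycolysis to 0.43 for YAP and SRF targets.

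Among clock genes, repressors had the largest differences. Of 13 tested core clock genes 3 were lower and 0 higher at an unadjusted p under 0.05 (background 4.71% and 3.86%), with a median of -0.35. Nr1d2, the repressor REV-ERB beta, had 317 at 4 h, 247 and 238 at 8 h and 131 at 12 h (-1.25, SE 0.185, adjusted p = 0.177). Bhlhe40, a repressor of E-box genes, had 341, then 287 and 267, then 220 (-0.63, SE 0.191). Ciart, a repressor of CLOCK and BMAL1, had 28.4, then 38.1 and 12.9, then 7.96, which are dim values (-1.52, SE 0.662).

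Arntl, which encodes BMAL1, had 77.7 at 4 h, 65.9 and 65.7 at 8 h and 77.6 at 12 h (0.00, SE 0.292), and Clock differed by -0.38 (SE 0.187), a value that turned to 0.06 with the mean of its probe sets. The period genes Per1, Per2 and Per3 had -0.46, -0.67 and -0.35, Cry2 -0.25 and Cry1 0.36, all at an unadjusted p above 0.05. Other probe sets of Per3 and Rora went the opposite way. So did 2 of the 4 others of Csnk1d, 1 of the 2 others of Csnk1e and all 3 others of Clock. Csnk1d and Csnk1e, kinases of the PER proteins, had -0.19 and -0.26, and Rora, the activator that competes with REV-ERB, 0.01.

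Of 11 clock output genes 2 were lower and 0 higher (background 4.71% and 3.86%). The lower count was 0 with the deposited scaling and 1 without either 8 h control replicate. Nampt, which makes NAD, had 1520 at 4 h, 1456 and 1337 at 8 h and 1033 at 12 h (-0.56, SE 0.154), and Tef, a D-box factor, had 392, then 355 and 392, then 284 (-0.46, SE 0.182). Dbp, another D-box factor, had 257, then 148 and 240, then 209 (-0.30, SE 0.305), with replicates too far apart to place it. Nfil3 (-0.04), Hlf (0.09), Usp2 (-0.16), Wee1 (-0.12), Lpin1 (-0.33), Tspo (-0.21) and Tsc22d3 (-0.08) also did not reach the unadjusted threshold.

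The Tef promoter is shown as a clock output window with the CLOCK and BMAL1 motif, the E-box CACGTG, in capitals, from RefSeq on the plus strand of GRCm38.p6 at chr15:81802423-81802722.
Tef: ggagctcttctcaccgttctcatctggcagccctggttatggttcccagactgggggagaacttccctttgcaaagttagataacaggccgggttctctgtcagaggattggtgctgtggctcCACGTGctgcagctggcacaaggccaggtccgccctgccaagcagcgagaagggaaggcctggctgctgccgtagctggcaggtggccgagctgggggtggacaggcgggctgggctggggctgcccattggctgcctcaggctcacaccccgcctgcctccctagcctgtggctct
An E-box was found in 2 of 12 windows of the clock output list, in 3 of 17 of the core clock list and in 7.15% of all windows. The D-box TTATGTAA was in 1 of 12, 1 of 17 and 0.938%. A serum response element core was in 0 of 21 windows of the immediate-early list and 0.0639% of all windows, which says only that these letters are not in these windows. The ROR element, AGGTCA after 2 bases of A or T, was in 0 windows of both clock lists and in 3.38% of all windows.

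**Figure D4:**
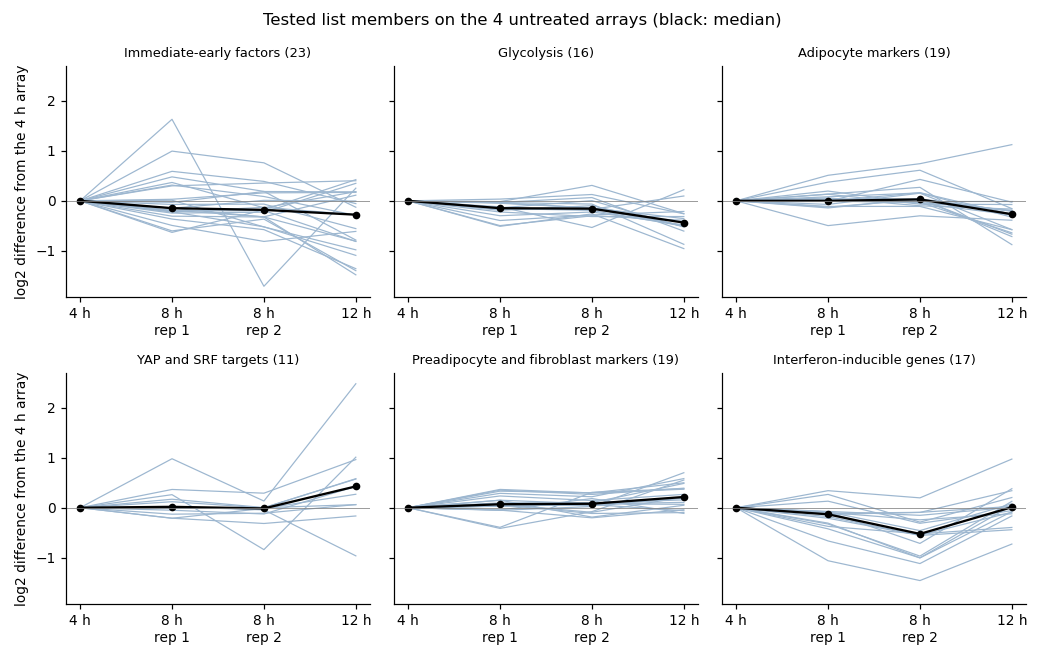
Log2 difference from the 4 h array (vertical axis) on the 4 control arrays (horizontal axis) for the tested members of 6 lists (blue lines) with their median (black). The 12 h medians are -0.27 for immediate-early factors, -0.44 for glycolysis, -0.27 for adipocyte markers, 0.43 for YAP and SRF targets, 0.22 for fibroblast markers and 0.01 for interferon-inducible genes, whose lowest median lies at 8 h.

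The remaining lists are read against the same background for 12 h minus 4 h, 3.86% higher and 4.71% lower at an unadjusted p under 0.05. Of 16 tested glucocorticoid targets 3 were lower and 0 higher (median -0.39), with Klf15, a factor of amino acid and lipid metabolism, at 187 at 12 h against 298 at 4 h (-0.66, SE 0.194). Their lower count was 0 with the deposited scaling, 1 without the trend, and 7 without either 12 h tunicamycin replicate or with the 4 control arrays alone. Of 20 ER chaperones and folding genes 5 were lower and 0 higher (median -0.12), while Hspa5, the chaperone BiP, had 3578 at 4 h, 3650 and 3329 at 8 h and 3259 at 12 h (-0.13, SE 0.12). The lower count of this list was 1 with the deposited scaling and 3 with median centring, without the filter, with the mean of probe sets or without the trend, and its median was -0.01 with median centring. Of 22 ATF4 and amino acid limitation targets 3 were higher and 3 lower. Ddit3, which encodes CHOP, had 501 at 4 h, 759 and 721 at 8 h and 794 at 12 h (0.66, SE 0.131, adjusted p = 0.256), but another of its probe sets went the opposite way.

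Of 19 FOXO and fasting targets 4 were lower and 1 higher, and these counts were 0 and 0 with the deposited scaling. Of 18 lysosome and autophagy genes 3 were higher and 0 lower, and of 14 NRF2 genes 2 were higher and 1 lower. With the deposited scaling these counts were all 0. The higher lysosome count was also 0 without the trend, and 1 with the mean of probe sets. The lower NRF2 count was 4 with the 4 control arrays alone. Nqo1, an NRF2-driven quinone reductase, had 127 at 4 h, 168 and 152 at 8 h and 223 at 12 h (0.80, SE 0.234), and Map1lc3b, the autophagosome protein LC3B, had 1862, then 2007 and 1999, then 2510 (0.43, SE 0.128). Cell cycle genes had 2 higher and 2 lower of 29, p53 targets 1 and 2 of 12, inflammatory genes 2 and 2 of 18, MAP kinase feedback inhibitors 1 and 1 of 13 and short-lived RNA regulators 1 and 1 of 16. Ribosomal proteins, heat shock proteins, insulin signalling and metallothioneins had 0 and 0. With the 4 control arrays alone, or without either 12 h tunicamycin replicate, insulin signalling had 1 higher and 2 lower and metallothioneins 1 lower. Ribosomal proteins had 2 higher with median centring, and heat shock proteins 1 higher without the filter.

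The respiratory chain had 0 higher and 1 lower of 27. The 12 h array was the lowest for 19 of them, against 31.3% of all tested genes (median -0.11). That median turned to 0.02 with the deposited scaling, relative to all genes, and to 0.06 with median centring, so no direction is given. The ribosomal protein median of 0.01 was 0.23 and 0.27 under these scalings.

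For 8 h minus 4 h, 39 genes were at least 2-fold higher (0.357%) and 61 at least 2-fold lower (0.559%), and 120 (1.1%) and 168 (1.54%) were higher and lower at an unadjusted p under 0.05. This comparison and that of 12 h minus 4 h share the 4 h array. Slc7a5, a transporter of large neutral amino acids, had 224 and 246 at 8 h against 439 at 4 h, a difference of -0.90 (SE 0.14, unadjusted p = 0.000173, adjusted p = 0.945). Its 12 h value was 296. Cxcl10, an interferon-inducible chemokine, had 63.4 and 58.9 at 8 h against 121 at 4 h (-0.95, SE 0.301), and had 101 at 12 h.

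Brat1, the tyrosine kinase Src, the transcription factor Sox12 and Mx1 differed by -0.91, -0.91, -0.85 and -0.89. Their 8 h replicates were 0.4, 0.33, -0.42 and -0.45 apart on the log2 scale. Lor (-0.88) and E130307A14Rik (-0.93) had wider 8 h replicates, 1.46 and 2.1 apart. Lor, the cornified envelope protein loricrin, had 445 and 1228 at 8 h against 1362 at 4 h. E130307A14Rik had 62.3 and 277 at 8 h against 254 at 4 h, and was at 0.12 without replicate 1 and -1.98 without replicate 2.

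On the higher side, Ebf1, an early factor of the adipocyte lineage, had 577 and 502 at 8 h against 315 at 4 h (0.77, SE 0.159), and Siae, a sialic acid esterase, had 100 and 118 against 50.5 (1.07, SE 0.258). Malat1, a nuclear noncoding RNA, had 1210 and 2052 at 8 h against 709 at 4 h (1.15, SE 0.513), with replicates far apart. The others were Mettl7a2 (0.89), the zinc finger repressor Zbtb20 (0.81), the histone demethylase Kdm6a (0.78), Trappc12 (0.72) and Cox8b (0.72), a respiratory subunit of brown fat and muscle. Cox8b had 147 and 301 at 8 h against 127 at 4 h, so its replicates were farther apart (1.02) than its difference. The 8 h replicates of Zbtb20 were 0.54 apart.

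Interferon-inducible genes were mostly dimmest at 8 h. Of 17 tested, 4 were lower and 0 higher than at 4 h at an unadjusted p under 0.05 (background 1.54% and 1.1%), with a median of -0.36. For 11 of them both 8 h arrays lay below the 4 h and the 12 h array, against 16.9% of all tested genes. The summed intensity of the list was 6513 at 4 h, 5864 and 4575 on 8 h replicates 1 and 2, and 7398 at 12 h. By this sum, replicate 1 was nearer to the 4 h array than to replicate 2. How much of the dip rests on replicate 2 is not given here. Mx2, an antiviral GTPase, had 56.9 and 42.5 at 8 h against 122 at 4 h (-1.26, SE 0.31, adjusted p = 1). Ifit3, an RNA-sensing effector, had 793 and 507 at 8 h against 995 at 4 h, and 1088 at 12 h.

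Replicate 2 was the lower 8 h array in both genes. Bst2, the tethering factor tetherin, had another pattern, with 1050 and 950 at 8 h against 828 at 4 h, and 1630 at 12 h (0.97 against 4 h, SE 0.153, adjusted p = 0.177). Immediate-early factors had 1 higher (Nr4a1, 0.49) and 2 lower (Myc, -0.48, and Srf, -0.66) for 8 h minus 4 h, and glycolysis 0 higher and 2 lower. Adipocyte markers and fibroblast markers had 1 higher and 1 lower, and 3 higher and 0 lower. Of all tested genes 1.1% were higher and 1.54% lower.

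The 12 h minus 8 h comparison, which does not use the 4 h array, had 524 genes higher (4.8%) and 618 lower (5.66%) at an unadjusted p under 0.05. At least 2-fold apart were 93 higher (0.852%) and 122 lower genes (1.12%). The 4 named genes with the lowest values were Csf1r (-1.34, SE 0.451), Hp (-1.32, SE 0.159), Ier2 (-1.24, SE 0.172) and 2610528A11Rik (-1.23, SE 0.227). Hp, which encodes haptoglobin, a secreted acute-phase protein of fat, had 318 at 12 h against 727 and 876 at 8 h (adjusted p = 0.15), and 771 at 4 h. Csf1r, a macrophage receptor, had 85 at 12 h against 144 and 337 at 8 h, and turned sign against 4 h, to 0.12, with the mean of its probe sets.

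The highest were Gas7 (1.84), Sertad4 (1.20), Chst2 (1.17) and Pdpn (1.16). By list, 9 of 19 adipocyte markers, 8 of 16 lipolysis and oxidation genes, 9 of 23 immediate-early factors and 8 of 16 glycolytic genes were lower at 12 h than at 8 h at the unadjusted p, with 0, 0, 1 and 0 higher. Interferon-inducible genes had 5 higher and 0 lower, YAP and SRF targets 6 higher and 1 lower. Of all tested genes 4.8% were higher and 5.66% lower in this comparison.

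The untreated drift was set beside the change of tunicamycin-treated cells from their own 4 h array, which shares no array with it. Across the 10916 genes, which are not independent, the 12 h minus 4 h differences correlated at r = 0.114, and those of 8 h minus 4 h at r = -0.029. Treated cells had 1080 genes at least 2-fold apart between 12 h and 4 h, against 255 in untreated cells. Every treated difference rests on the lone 4 h tunicamycin array. Of the 8 arrays it had the highest 3' to 5' ratios of beta-actin (2.81) and pyruvate carboxylase (43.5). Its 18S signal, 8.86 times the array mean, was also the highest. The part of this in the treated values was not tested. All 8 genes named as lowest in untreated cells also had negative differences in treated cells, as did 55.1% of all tested genes. Of the 514 genes lower at the unadjusted p in untreated cells, 375 (73.0%) were lower in treated cells. Of the 421 higher ones, 226 (53.7%) were higher in treated cells, against 44.9% of all tested genes. The 12 h arrays of both arms shared the low BioC over BioB ratio, and its part in these shares was not tested.

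Fosl1 differed by -1.41 in treated and -1.36 in untreated cells, Bnip3 by -1.23 and -1.10, Hp by -1.49 and -1.27, and Gas7 by 1.06 and 1.99. Of the 112 named and tested genes, the difference between the changes was called by limma for 12 at 12 h minus 4 h and for 6 at 8 h minus 4 h, while over all tested genes 329 (3.01%) and 65 (0.595%) were called. Most named genes were chosen for large untreated differences, which are part of the difference tested, so the counts among them are not read against these shares. The counts of 12 and 6 were 0 and 0 with the deposited scaling or without the trend, and 7 and 0, or 7 and 1, without 8 h control replicate 1 or 2. Pdia4, an ER disulfide isomerase, differed by 2.20 in treated and -0.60 in untreated cells (adjusted p of the difference 0.00467). Ero1a differed by 0.80 and -1.13 (adjusted p = 0.013), and Pparg by -1.91 and -0.58 (adjusted p = 0.0135).

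**Figure D5:**
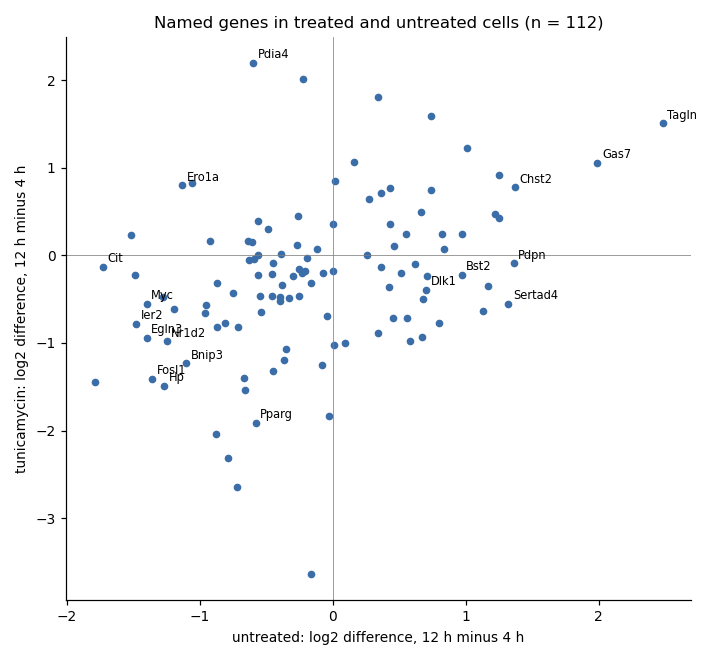
Log2 difference, 12 h minus 4 h, in tunicamycin-treated cells (vertical axis) against that in untreated cells (horizontal axis) for the 112 named and tested genes (points). Pdia4 and Ero1a lie above 0 in treated and below 0 in untreated cells, and Bnip3, Fosl1 and Hp lie below 0 in both.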

How the data were processed

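RNA of 8 cultures was extracted with Trizol and biotin-labelled, per the labels' protocols. The deposited series table holds linear intensity values, 1 per probe set and array, and no source used here states the authors' software or scaling. Per array, 19.2% to 20.9% of values were at or below 0 and the median was 9.56 to 22, a gap of 1.2 on the log2 scale. The number of arrays limits the precision. The authors' deposited tables of ratios were not used. Columns matched to no sample numbered 0, and 0 pairs of arrays were identical.

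Values were quantile-normalized on the linear scale over the 8 arrays, set to 0 where negative, and used as log2(value + 2.956), the pseudocount being the 10th percentile of positive deposited values. By the platform annotation, 34958 probe sets carried 1 symbol, 932 several and 9211 none, and 34754 were matched to RefSeq. A gene is its probe set with 1 symbol and the highest mean. Of 18193 genes, the 10916 with a mean log2 value of at least 4.19 (about 15.3 units) were tested with limma 3.58.1 in R 4.3.3 (1 mean per group, 2 residual and 6.36 prior degrees of freedom, intensity trend), adjusted by Benjamini-Hochberg and called under 0.05. All p-values are two-sided. The fit was tested on simulated data. Figures used matplotlib 3.10.9.

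Named genes were the 8 highest and 8 lowest differences from 4 h at each time, the 4 and 4 of 12 h minus 8 h (at 50 units or more on all 4 control arrays where not called), the 2 largest of each list, clock genes and adipocyte markers, 113 in all. The 33 lists were written from general knowledge. Some genes are on several lists, so the counts of different lists are not independent. Members, lists and rules were chosen with earlier results of these data known. Alternatives were other scalings, pseudocount, filter, probe set rule, variance model and arrays.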

Additional observations from a re-analysis of the deposited data

Results flagged for a closer look

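For 14 of the named genes the change over time differed between tunicamycin-treated and untreated cells in limma's test of the difference itself (treated change minus untreated change, log2, each from the arm's own 4 h array). Most were named for their untreated differences, which enter this test, and with the deposited scaling or without the intensity trend 0 of the named genes were called. At 12 h minus 4 h the differences were 2.80 for Pdia4, 1.93 for Ero1a and 1.46 for Ebp, and -1.87 for Sertad4, -1.81 for Cebpa, -1.57 for Nqo1, -1.56 for S100a4, -1.52 for Pde3b, -1.33 for Pparg, -1.23 for Ebf1, -1.19 for Bst2 and -1.09 for Dlk1. At 8 h minus 4 h they were 1.71 for Ero1a, 1.70 for Pdia4 and 1.51 for Slc7a5, and -1.92 for Pparg, -1.80 for Klf15 and -1.49 for S100a4.

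For 6 of these genes the treated difference at 12 h minus 4 h was negative and the untreated one positive. Sertad4 had -0.55 in treated and 1.32 in untreated cells, Bst2 -0.22 and 0.97 and Nqo1 -0.77 and 0.80. Dlk1, at -0.39 and 0.70, S100a4, at -0.98 and 0.58, and Ebf1, at -0.89 and 0.34, were the others. The untreated value of Ebf1 had an SE of 0.184, and 1 of its 3 other probe sets went the opposite way. Ero1a was at 3264 on the 4 h tunicamycin array and 1496 on the 4 h control, so that the arms started from different values. The 4 h tunicamycin array also had the highest 3' to 5' ratio of beta-actin, 2.81, and 18S signal, 8.86 times the array mean, of the 8 arrays, and the part of this in the differences was not tested.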

How the results depend on the processing

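The calls of 0 genes in the 3 control comparisons were the same under every scaling by quantiles or medians, the pseudocount of 16, the mean of all probe sets, the fit without an intensity trend, the 4 control arrays alone and each replicate left out. Without the filter 94 genes were higher and 45 lower for 12 h minus 4 h, 1 and 61 for 8 h minus 4 h and 136 and 7 for 12 h minus 8 h; for 137 of 139, 62 of 62 and 139 of 143 of them a replicate pair was at 0. With the deposited scaling kept, where the median of all genes shifted by -0.429, -0.221 and -0.2, 2 genes were lower for 12 h minus 4 h and 2 for 12 h minus 8 h (Apol6 and Prelid3a in both, at 1.36 and -1.06 units at 12 h) and 1 was higher for 8 h minus 4 h (Wfikkn1, at -4.32 units at 4 h). Median centring shifted the median of all genes by 0.124 for 12 h minus 8 h.

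The named genes whose treated and untreated changes differed, 12 and 6, numbered 0 and 0 with the deposited scaling, 3 and 1 without the filter, 6 and 1 with the mean of probe sets and 0 and 0 without the trend; leaving out replicates gave 7 to 13 and 0 to 5, with 7 and 0 without 8 h control replicate 1 and 7 and 1 without replicate 2. The cause was not tested. Of 1632 values of named genes under the alternatives, 20 turned sign and 0 were newly called. With the mean of all probe sets the 12 h minus 4 h values were 0.21 for Acacb, 0.42 for Cit, 0.06 for Clock, 0.12 for Csf1r, -0.29 for Des, 0.28 for Hspb1, -0.07 for Kdm6a, -0.36 for Malat1, -0.05 for Rora and 0.02 for Wee1. With the deposited scaling they were 0.14 for Adipoq, 0.03 for Arntl and 0.11 for Fabp4, with median centring 0.18, 0.05 and 0.15, and also 0.03 for Cebpa and 0.01 for Nfil3, and Fabp4 was at 0.00 with the pseudocount of 16. E130307A14Rik was at 0.12 for 8 h minus 4 h without control replicate 1 and at -1.98 without replicate 2.

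No paired analysis was possible because the groups compared share fewer than 2 replicate numbers. The 4 h and 12 h controls have 1 array each, so neither could be left out. Signal over background limits dim genes such as Tagln and Ciart.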
